A study of Mus musculus with 12 samples.

Results

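Skeletal muscle genes were followed in RNA of embryonic mouse testis. The set held 35 genes of the 35976 symbols counted, listed by name as parts of the contractile apparatus of skeletal muscle, its calcium and energy supply and the transcription factors that set up the lineage, and all 35 were found in every library. The study asked what the neonicotinoid insecticide thiacloprid (*thia*), given to pregnant mothers, does to the developing testis of directly exposed offspring and of later generations. All mice were outbred Swiss (RjOrl), and every testis was taken on embryonic day E15.5. Mothers received by gavage either the oil vehicle (0 mg/kg/day, control) or *thia* at 6 mg/kg/day from E6.5 to E15.5. F1 embryos were the directly exposed offspring and their controls. F3 embryos descended from *thia* or control ancestors through the male line, with unexposed, unrelated females at each cross, so no F3 embryo was itself exposed. There were 3 libraries in each of the 4 groups (F1 control, F1 *thia*, F3 control and F3 *thia*), and each library was made from the pooled testes of 3 embryos, so a difference between single embryos within a pool cannot be seen. Libraries are called pools 1 to 3 of their group below.

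Skeletal muscle is built from repeated contractile units, the sarcomeres, in which thick filaments of myosin pull on thin filaments of actin when calcium binds the troponin complex. The lineage is set up by the myogenic regulatory factors *Myod1*, *Myf5*, *Myog* and *Myf6*, transcription factors that bind E-boxes and switch on the sarcomeric genes as myoblasts fuse into fibres. Embryonic fibres use embryonic and neonatal myosin heavy chains (*Myh3* and *Myh8*) and the cardiac actin *Actc1* before the adult forms take over. The testis is not known to form skeletal muscle. Its contractile cells are smooth muscle-like peritubular cells and vessel walls, which use other actin and myosin genes, while the cremaster muscle lies outside the testis.

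The libraries held 25081647 to 68996146 counts over genes, and levels are given in CPM, counts scaled to the library total with the TMM method, of which 1 stood for 27.4 to 66.1 counts. Markers of the labelled tissue were present in every pool: the 6 Sertoli cell markers summed to 444 to 1499.8 CPM, the 6 fetal Leydig cell markers to 2239 to 7218 CPM and the 6 germ cell markers to 352 to 1142 CPM over the 12 pools. F3 *thia* pool 2 stood apart by its gut and liver markers, which summed to 4699 CPM beside 74.0 to 1539 CPM in the other pools. Most of that sum was *Alb* (2341 CPM) and *Afp* (1746 CPM). *Fabp2* and *Lgals4* were also highest there, at 1.97 and 3.94 CPM, while *Vil1* and *Cdx2* lay within the range of the other pools. F3 control pool 3 had the second highest sum of the gut and liver markers (1539 CPM), and F1 control pool 1 the highest in F1 (422 CPM, against 74.0 to 177 CPM). The skeletal muscle genes were also high in these 3 pools, and the results below are given with and without the pools on which they rest.

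The summed level of the 35 genes was uneven between pools, and in F1 *thia* 1 pool carried most of it. The highest pool held 42.7% of the group's total in F1 control, 46.4% in F3 control and 42.7% in F3 *thia*. In F1 control the sum was 317, 224 and 202 CPM in pools 1, 2 and 3. In F1 *thia* it was 264, 1132 and 255 CPM, so pool 2 alone held 68.6% of the group's total and the other 2 pools lay within the range of the controls. In F3 control the sum was 362, 308 and 579 CPM, with pool 3 the highest, and in F3 *thia* 305, 455 and 306 CPM, with pool 2 the highest. The group means were 248 ± 61.5 CPM in F1 control, 551 ± 504 in F1 *thia*, 416 ± 143 in F3 control and 356 ± 86.3 in F3 *thia* (SD, n = 3 pools). In F1 *thia* the SD was thus almost as large as the mean, and the ranges of the control and *thia* pools overlapped in both generations. As the libraries are bulk RNA, more muscle cells in a pool and more muscle RNA per cell cannot be told apart.

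**Figure D1:**
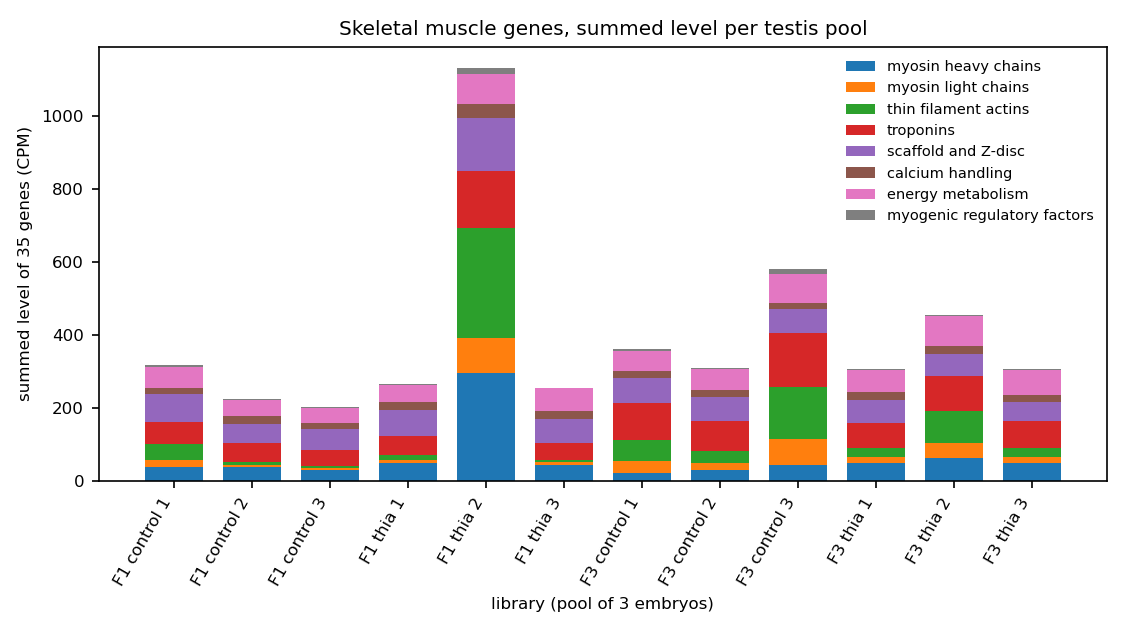
Summed level of the 35 skeletal muscle genes (CPM, vertical axis, from 0) in each of the 12 pools, with the bar divided by the role of the genes. F1 *thia* pool 2 reached 1132 CPM, all other F1 pools lay between 202 and 317 CPM, and F3 control pool 3 was the highest F3 pool at 579 CPM.

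Gene by gene, F1 *thia* pool 2 was the highest of the 6 F1 pools for 31 of the 35 genes. It was at least 1.5-fold above the next pool for 24 of them and at least 3-fold above it for 17. Against the median of the other 5 F1 pools, its level was 59.8-fold for skeletal alpha actin (*Acta1*), 38-fold for cardiac alpha actin (*Actc1*), 37.1-fold for embryonic myosin (*Myh3*) and 34.7-fold for the alkali light chain *Myl1*. The 4 genes that did not peak there were *Actn3* (highest in F1 control pool 2) and *Myh4*, *Mybpc2* and *Pygm* (highest in F1 *thia* pool 3). The median ratio over the 35 genes was 4.01 in F1 *thia* pool 2, beside 1.20 in F1 control pool 1 and 1.28 in F1 *thia* pool 1, and it was under 1 in the remaining F1 pools. F1 control pool 1 was the next to stand out, with 10 genes at 2-fold or more of the median of the other F1 pools, among them *Acta1* (7.85-fold). No F3 pool was as extreme: F3 control pool 3 was the highest F3 pool for 15 of the 35 genes (median ratio 1.42, 14 genes at 2-fold or more), F3 *thia* pool 1 for 8 and F3 *thia* pool 2 for 6.

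**Figure D2:**
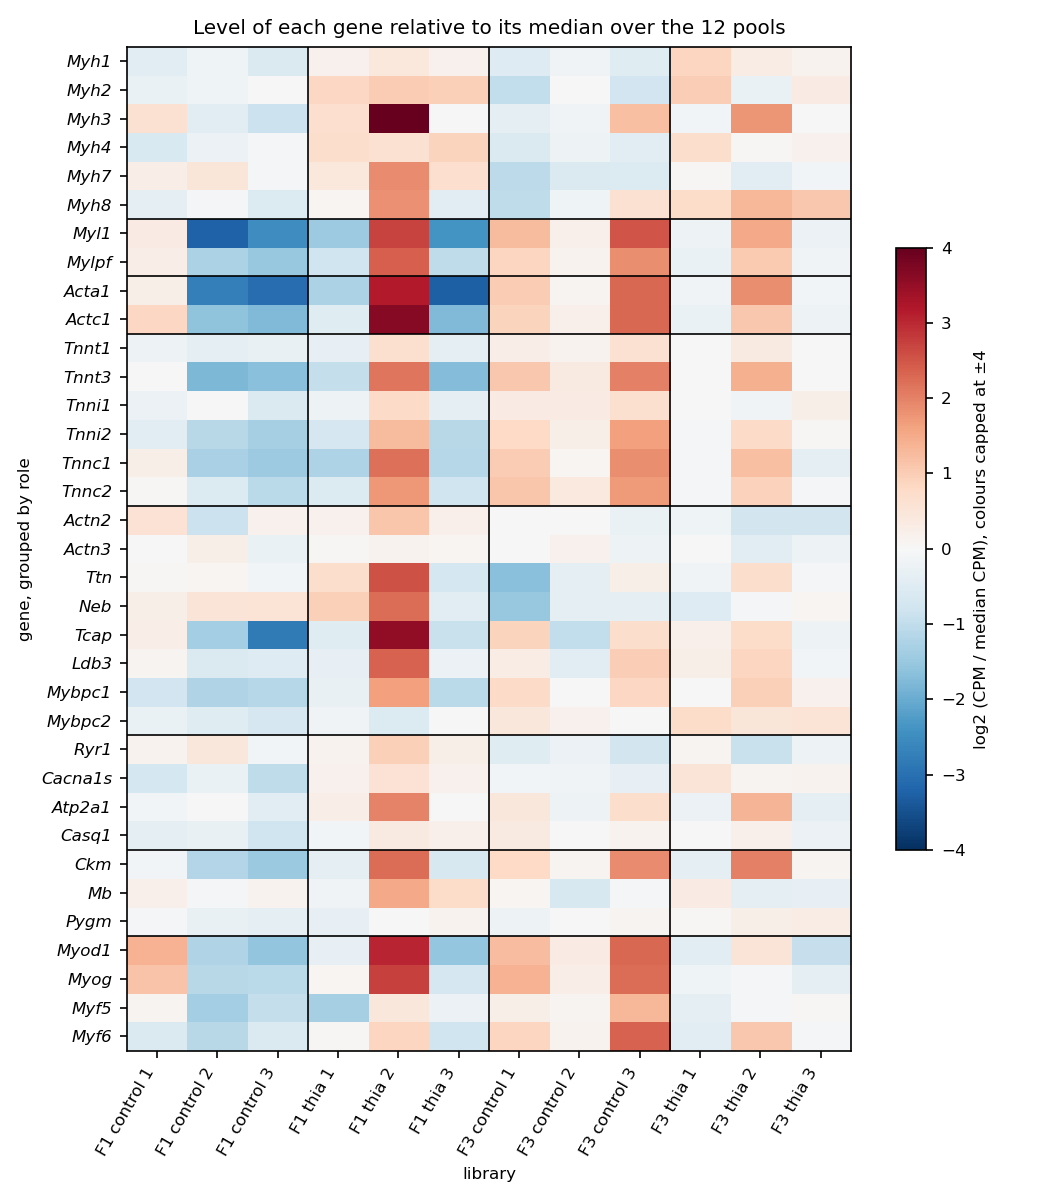
Level of each of the 35 genes (rows, grouped by role) in each pool (columns), as log2 of its CPM over the gene's median in the 12 pools, with colours capped at ±4. The column of F1 *thia* pool 2 is red for nearly all genes, with *Myh3*, *Actc1*, *Tcap* and *Acta1* the darkest, and the second reddest column is F3 control pool 3.

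The spread between pools was wide for these genes and narrow for others. Among genes with a mean of at least 1 CPM (15394 genes, 31 of the 35), the median coefficient of variation over the 3 F1 *thia* pools was 85.6% for the skeletal muscle genes and 8.63% for all genes. The same medians were 20.1% and 10.8% in F1 control, 39.2% and 8.81% in F3 control, and 32.9% and 10.9% in F3 *thia*.

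Further muscle genes stood out in F1 *thia* pool 2. Of the 50 genes with the highest ratio of that pool to the other F1 pools, 17 belonged to the 35 and 8 were on a list of 46 further skeletal muscle genes. The cardiac list had 3 (*Sln*, *Tnnt2* and *Myl3*), of which *Sln* was also on the list of 46 and is counted in both. The fat and tendon list had 2 (*Tnmd*, a tendon membrane protein, and *Kera*, a connective tissue proteoglycan). None was a gut and liver marker. *Tnmd* was at 17.2 CPM in F1 *thia* pool 2 and between 0.11 and 0.39 CPM in the other F1 pools. The rest of that list was mixed. *Thbs4* was also higher there (32.4 against 12.2 to 19.8 CPM). *Scx*, at 21.8 against 17.7 to 23.5 CPM, and *Plin1*, *Lpl*, *Adipoq* and *Cidec* lay within the range of the other F1 pools. In F1 control pool 1 the 50 leading genes held 6 of the 35 and 4 gut and liver markers, in F3 control pool 3 they held 4 of the 35 and 2 gut and liver markers, and in F3 *thia* pool 2 none of the 35 and 2 gut and liver markers. The 13 cardiac muscle markers summed to 127 CPM in F1 *thia* pool 2, 79.7 to 106 CPM in the other F1 pools and 70.1 to 91.2 CPM in F3. Cardiac troponin T (*Tnnt2*), which embryonic skeletal muscle also uses, was at 18.3 CPM in F1 *thia* pool 2 against 1.53 to 3.61 CPM in the other F1 pools, and *Myl3*, a light chain shared by heart and slow fibres, at 3.71 against 0.118 to 0.51 CPM. *Myl7*, on the same cardiac list, went the other way, at 3.41 CPM in F1 *thia* pool 2 against 6.42 to 9.98 CPM in the other F1 pools. The defining cardiac marker *Nppa*, atrial natriuretic peptide, was between 0 and 0.113 CPM in the 12 pools. *Tnni3*, *Mybpc3* and *Myh6* were at 7.49 to 48.2 CPM in every pool. The smooth and peritubular muscle markers summed to 909.8 CPM in F1 *thia* pool 2, within the 884 to 1136 CPM of the other F1 pools. Whether tissue from outside the testis entered any pool was not tested.

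In F1, the skeletal muscle genes were higher in the *thia* pools by fitted fold change, but none passed the test. Of the 35 genes, 33 passed the filter on low counts (*Tcap* and *Myf6* did not), and all 33 had a log2 fold change above 0, with a median of 1.08, beside 0.0094 for the 19137 genes tested. By edgeR's quasi-likelihood test at an adjusted p of 0.15, 0 of the 33 were called (0.0105% of all genes tested were), and the smallest adjusted p was 0.201, for *Myh2*. At an unadjusted p under 0.05, 13 of the 33 (39.4%) were higher, against 4.63% of all genes tested: the 6 myosin heavy chains, *Ttn*, *Ldb3*, *Mybpc1*, *Cacna1s*, *Atp2a1*, *Casq1* and *Ckm*. That count depended on single pools: it was 21 without F1 control pool 1, 6 without control pool 3, 24 without *thia* pool 1, 5 without *thia* pool 2 and 27 without *thia* pool 3, while the share of all genes tested was 5.19%, 3.55%, 4.52%, 4.55% and 3.37% in the same order. DESeq2's Wald test at the same adjusted threshold gave no p for 6 of the 33 (*Myh3*, *Myl1*, *Mylpf*, *Acta1*, *Actc1* and *Tnnc1*), and called 3 of the remaining 27 (*Myh2*, *Myh4* and *Cacna1s*, all higher), against 0.985% of all genes with an adjusted p. For 5 of the 33 (15.2%) every *thia* pool lay above every control pool (*Myh1*, *Myh2*, *Myh4*, *Cacna1s* and *Casq1*), which was the case for 6.01% of all genes tested. The others overlapped between the groups, including *Myh3*, the actins and the troponins.

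Leaving out F1 *thia* pool 2 took away most of this difference. Without it, 22 of the 34 genes then tested were higher and the median log2 fold change was 0.046, and 5 of the 34 (14.7%) were higher at an unadjusted p under 0.05, against 4.55% of all genes tested. These 5 were the same genes that did not overlap between the groups, *Myh1*, *Myh2*, *Myh4*, *Cacna1s* and *Casq1*. The log2 fold change of *Acta1* went from 2.70 to -0.91 and that of *Actc1* from 2.47 to -0.67, so both turned to the opposite direction, and F1 control pool 1 was then the highest F1 pool for both. With F1 control pool 1 left out as well, the median was 0.48 with 31 of 33 genes above 0, 9 were higher at an unadjusted p under 0.05, against 4.91% of all genes tested, and none passed the threshold.

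**Figure D3:**
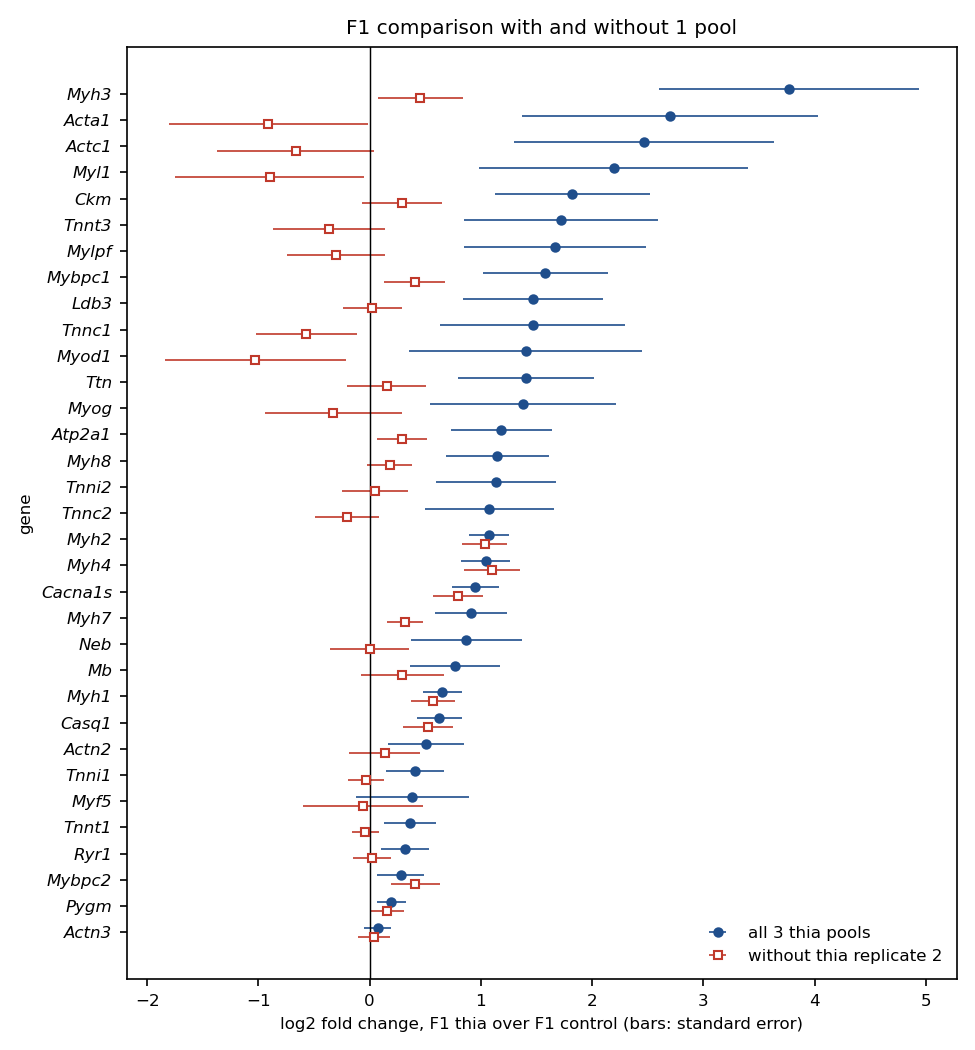
Log2 fold change of F1 *thia* over F1 control for the 33 tested genes (points, with standard errors), fitted with all 3 *thia* pools (filled) and without *thia* pool 2 (open). With all pools every gene lies right of 0. Without pool 2 the median of the 33 is 0.050, and *Myh1*, *Myh2*, *Myh4*, *Cacna1s* and *Casq1* keep values of 0.52 to 1.1.

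In F3 the skeletal muscle genes lay on both sides of 0 and none passed the test. All 35 were tested, 14 were higher and 21 lower in the *thia* pools, and the median log2 fold change was -0.19 beside 0.0044 for the 18539 genes tested. None was called at an adjusted p of 0.1 by edgeR (0% of all genes tested were called), and the smallest adjusted p was 0.120, for *Myog*. At an unadjusted p under 0.05, 6 of the 35 (17.1%) were higher, against 11.0% of all genes tested (*Myh1*, *Myh2*, *Myh4*, *Myh7*, *Myh8* and *Cacna1s*), and 4 (11.4%) were lower, against 10.0% of all genes tested (*Tnni1*, *Actn2*, *Myod1* and *Myog*), so the shares of these genes were near those of the whole table. The 6 became 2 without F3 control pool 1 or *thia* pool 1 and 3 without *thia* pool 3, where the share of all genes tested was 6.07%, 10.2% and 6.64%. The 4 became 9 without control pool 2 (8.0% of all genes tested), 2 without control pool 3 (8.29%) or *thia* pool 3 (7.20%), and 15 without *thia* pool 2 (10.4%). Every *thia* pool lay above every control pool for 6 genes (17.1%, against 16.2% of all genes tested) and below for 3 (8.57%, against 11.1%). DESeq2 gave no adjusted p for *Tcap*, *Mb*, *Myod1*, *Myf5* and *Myf6*, and called 6 of the remaining 30 (*Myh1*, *Myh7* and *Myh8* higher, *Tnni1*, *Actn2* and *Myog* lower), against 17.1% of all genes with an adjusted p.

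The F3 result also moved with single pools. Without F3 *thia* pool 2, the pool with the high gut and liver markers, 15 of the 35 (42.9%) were lower at an unadjusted p under 0.05, against 10.4% of all genes tested, and none was called, against 6.82% of all genes tested. The median log2 fold change was then -0.39, with 23 of 35 genes lower. Without F3 control pool 3 the median log2 fold change was -0.00024, the log2 fold change of *Acta1* turned from -0.62 to 0.19, and 17 of 35 genes were higher. With both pools left out the median was -0.25 with 20 of 34 genes lower, 11 of the 34 (*Myl1*, *Mylpf*, *Acta1*, *Actc1*, *Tnnt3*, *Tnni2*, *Tnnc1*, *Tnnc2*, *Actn2*, *Myod1* and *Myog*) were lower at an unadjusted p under 0.05, against 9.10% of all genes tested, and 5 (*Myh1*, *Myh2*, *Myh4*, *Myh7* and *Myh8*) were higher, against 11.9%. Of these, *Myh8* alone was called (adjusted p = 0.0993), against 1.1% of all genes tested. The gut and liver markers and the skeletal muscle genes were both high in these pools, and their part in the result was not tested.

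The myosin heavy chains, the motor proteins of the thick filament, were the role in which both generations had every gene higher in *thia*. *Myh1*, *Myh2*, *Myh3*, *Myh4* and *Myh8* lie side by side on chromosome 11 (mm10, 67078300 to 67308634) and are close paralogs, so reads from shared exon sequence could be credited to the wrong one. *Myh2*, the fast IIA chain, was at 1.94, 2.09 and 2.33 CPM in the F1 control pools and at 4.10, 4.66 and 4.49 CPM in the F1 *thia* pools (log2 fold change 1.07, SE 0.179, edgeR adjusted p = 0.201). The 3 *thia* pools were alike and all above the controls. In F3 it was at 1.18, 2.33 and 1.38 CPM in control and 4.58, 1.94 and 2.95 CPM in *thia* (0.92, SE 0.380, adjusted p = 0.227), with overlap through control pool 2.

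*Myh1*, the fast IIx chain, was at 2.92, 3.47 and 2.62 CPM in F1 control and 4.46, 5.23 and 4.43 in F1 *thia* (log2 fold change 0.65, SE 0.176, adjusted p = 0.446), and at 2.75, 3.54 and 2.79 CPM in F3 control and 7.08, 4.80 and 4.33 in F3 *thia* (0.80, SE 0.235, adjusted p = 0.138). *Myh4*, the fast IIb chain, was at 1.07, 1.40 and 1.60 CPM in F1 control and 2.65, 2.52 and 3.07 in F1 *thia* (1.04, SE 0.224, adjusted p = 0.408), and at 1.09, 1.43 and 1.23 (control) and 2.66, 1.68 and 1.83 CPM (*thia*) in F3 (0.68, SE 0.249, adjusted p = 0.183). For both genes the *thia* pools lay above the control pools in each generation without overlap, at levels of a few CPM, and F1 *thia* pool 2 was not far from its fellow pools.

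*Myh3*, the embryonic chain, had the largest F1 fold change of the 33 genes tested. It was at 8.48, 4.11 and 3.02 CPM in control and 8.82, 201 and 5.42 in *thia* (log2 fold change 3.77, SE 1.17, adjusted p = 0.507), so pool 2 stood 22.8-fold above the next pool and *thia* pools 1 and 3 lay within or just above the range of the controls. In F3 it was at 4.36, 5.02 and 12.7 CPM in the controls and 5.11, 18.9 and 5.66 CPM in the *thia* pools (0.37, SE 0.607, adjusted p = 0.765), with 1 high pool in each group.

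*Myh8*, the neonatal chain, was at 8.67, 10.4 and 7.58 CPM in F1 control and 11.7, 39.0 and 8.26 in F1 *thia* (log2 fold change 1.15, SE 0.464, adjusted p = 0.553), and at 5.48, 9.89 and 16.9 (control) and 18.5, 27.6 and 23.6 CPM (*thia*) in F3 (1.07, SE 0.371, adjusted p = 0.170). The F1 groups overlapped through *thia* pool 3, while in F3 all 3 *thia* pools lay above the controls. *Myh7*, the slow chain of fibres and heart, was at 13.3, 15.6 and 10.8 (control) and 15.0, 41.7 and 18 CPM (*thia*) in F1 (0.91, SE 0.323, adjusted p = 0.518) and at 5.36, 7.40 and 7.59 (control) and 11.6, 8.22 and 10.3 CPM (*thia*) in F3 (0.53, SE 0.194, adjusted p = 0.186). Its F1 pools overlapped, and its F3 pools did not, with every *thia* pool above the controls.

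Myosin light chains and actins, the small proteins of the thick and thin filaments, gave a strong contrast between pools. *Acta1*, the actin of adult skeletal fibres, was at 20.6, 2.63 and 2.11 CPM in F1 control and 7.18, 157 and 1.81 in F1 *thia* (log2 fold change 2.70, SE 1.33, adjusted p = 0.587). Its level in F1 *thia* pool 3 was the lowest of all 12 pools and that in pool 2 the highest. In F3 it was at 35.1, 18.7 and 86.1 CPM in control and 15.9, 62.6 and 16.1 in *thia* (-0.62, SE 0.697, adjusted p = 0.653), so the highest *thia* pool lay between control pools 1 and 3.

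*Actc1*, the actin of heart and embryonic muscle, was at 20.9, 3.82 and 3.46 CPM in F1 control and 8.37, 145 and 3.43 in F1 *thia* (log2 fold change 2.47, SE 1.17, adjusted p = 0.581), and at 21.6, 13.5 and 57.2 (control) and 9.83, 24.6 and 10.2 CPM (*thia*) in F3 (-1.10, SE 0.581, adjusted p = 0.325). *Mylpf*, the regulatory light chain of fast fibres, was at 15.9, 5.47 and 4.55 (control) and 7.44, 68.8 and 6.51 CPM (*thia*) in F1 and at 23.8, 14.5 and 47.2 (control) and 10.8, 27.2 and 11.8 CPM (*thia*) in F3, and *Myl1*, the alkali light chain, at 5.33, 0.455 and 0.765 (control) and 1.55, 28.1 and 0.810 CPM (*thia*) in F1 and 10.4, 4.97 and 24.2 (control) and 3.68, 12.2 and 3.63 CPM (*thia*) in F3. All these genes kept the same order of pools in F1, with *thia* pool 2 first, then control pool 1 and then *thia* pool 1, and all overlapped between groups in both generations. Their adjusted p ran from 0.581 to 0.614 in F1 and from 0.325 to 0.653 in F3.

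The troponins, the calcium switch of the thin filament, fell into a slow pair that varied less between pools and a pool-dependent rest. *Tnnt1*, slow troponin T, was at 21.3, 19.2 and 19.8 CPM in F1 control and 19.6, 38.1 and 19.3 in F1 *thia*, and at 29.6, 27.2 and 37.0 (control) and 24.4, 31.4 and 24.5 CPM (*thia*) in F3. *Tnni1*, slow troponin I, was at 19.6, 23.4 and 15.7 (control) and 20.1, 39.4 and 17.9 CPM (*thia*) in F1 (log2 fold change 0.41, SE 0.264, adjusted p = 0.646) and at 29.0, 28.9 and 36.2 (control) and 23.0, 20.9 and 27.3 CPM (*thia*) in F3 (-0.44, SE 0.139, adjusted p = 0.15). Both were present in every pool at 15.7 CPM or more, and F3 *Tnni1* was lower in every *thia* pool than in any control pool. Fast *Tnnt3* and *Tnni2*, neighbours on chromosome 7, with the calcium-binding *Tnnc1* and *Tnnc2*, ran from 10.4 to 25.6 CPM in F1 *thia* pool 2 and from 1.49 to 7.83 CPM in the other F1 pools. The level of *Tnnt3* was 62.0% of that of *Tnnt1* in F1 *thia* pool 2 and 7.89% to 24.6% in the other F1 pools. *Tnni2* was at 26.3% of *Tnni1* there and at 8.42% to 16.0% in the other F1 pools. *Tnnc2* went the other way, at 136% of *Tnnc1* there and 162% to 308% in the other F1 pools. These ratios do not separate a change in the mixture of fast and slow forms from a change in amount. In F3 the 6 troponins were all lower in *thia*, with log2 fold changes of -0.85 to -0.26 and adjusted p of 0.15 to 0.457.

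Scaffold and Z-disc genes, which hold the filaments in place, were mixed. *Actn2*, the alpha-actinin of the Z-disc, was at 39.2, 14.4 and 29.3 CPM in F1 control and 29.8, 56.7 and 30.5 in F1 *thia* (log2 fold change 0.51, SE 0.339, adjusted p = 0.655), and at 26.2, 26.3 and 22.0 (control) and 23.2, 15.9 and 15.8 CPM (*thia*) in F3 (-0.48, SE 0.168, adjusted p = 0.172). *Actn3*, the form of fast fibres, was at 21.6, 25.3 and 17.9 (control) and 21.9, 23.4 and 22.3 CPM (*thia*) in F1 and at 21, 24.0 and 18.4 (control) and 20.9, 15.6 and 18.4 CPM (*thia*) in F3. *Actn3* was thus nearly level over all 12 pools and did not follow the high pool, and the F3 groups overlapped for both actinins.

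*Ttn*, the giant spring titin, was at 2.74, 2.76 and 2.44 CPM in F1 control and 4.23, 15.2 and 1.61 in F1 *thia* (log2 fold change 1.40, SE 0.612, adjusted p = 0.563), and at 0.817, 1.98 and 3.05 (control) and 2.38, 4.25 and 2.51 CPM (*thia*) in F3. *Ldb3*, which links actinin at the Z-disc, was at 3.03, 1.85 and 1.97 (control) and 2.24, 14.4 and 2.38 CPM (*thia*) in F1 (1.47, SE 0.631, adjusted p = 0.560) and at 3.39, 2.06 and 5.53 (control) and 3.27, 5.04 and 2.56 CPM (*thia*) in F3. *Mybpc1*, slow myosin-binding protein C, was at 3.51, 2.59 and 2.70 (control) and 4.89, 18.6 and 2.82 CPM (*thia*) in F1 (1.58, SE 0.562, adjusted p = 0.518) and at 10.2, 6.11 and 10.6 (control) and 5.86, 11.6 and 6.73 CPM (*thia*) in F3. For these 3 genes F1 *thia* pool 2 was at least 3-fold above the next F1 pool, and the remaining pools overlapped between the groups. Nebulin (*Neb*), the ruler of the thin filament, ran from 0.757 to 10.2 CPM over the 12 pools with its maximum in the same pool. Telethonin (*Tcap*), the titin cap, was near the limit of detection (0.0364 to 3.01 CPM), and fast *Mybpc2* ran from 1.82 to 4.86 CPM, with all F3 *thia* pools above the F3 controls.

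Of the calcium-handling genes, *Cacna1s*, the voltage sensor of the fibre membrane, was at 3.40, 4.6 and 2.73 CPM in F1 control and 6.19, 8.30 and 6.20 in F1 *thia* (log2 fold change 0.95, SE 0.210, adjusted p = 0.408), and at 5.12, 5.08 and 4.38 (control) and 7.87, 5.99 and 6.11 CPM (*thia*) in F3 (0.42, SE 0.169, adjusted p = 0.218). Every *thia* pool lay above every control pool in both generations. *Casq1*, the calcium store protein of fast fibres, was at 2.38, 2.53 and 1.79 (control) and 2.87, 3.91 and 3.54 CPM (*thia*) in F1 (0.63, SE 0.205, adjusted p = 0.513) and at 3.90, 3.01 and 3.39 (control) and 3.13, 3.56 and 2.62 CPM (*thia*) in F3, where the groups overlapped. *Atp2a1*, the calcium pump SERCA1, was at 2.57, 2.78 and 2.04 (control) and 3.28, 10.9 and 2.71 CPM (*thia*) in F1 (1.18, SE 0.454, adjusted p = 0.526) and at 3.78, 2.38 and 4.49 (control) and 2.31, 7.03 and 2.15 CPM (*thia*) in F3. *Ryr1*, the calcium release channel, was at 10.1, 12.5 and 8.38 (control) and 10.1, 17.6 and 10.8 CPM (*thia*) in F1 and at 6.54, 7.69 and 5.51 (control) and 9.87, 4.92 and 7.94 CPM (*thia*) in F3. *Atp2a1* was highest in *thia* pool 2 of each generation, and *Ryr1* was spread over all pools with overlap in both generations.

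Energy genes differed among themselves. *Pygm*, muscle glycogen phosphorylase, was at 50.5, 42.1 and 40.7 CPM in F1 control and 41.0, 53.0 and 57.6 in F1 *thia* (log2 fold change 0.20, SE 0.132, adjusted p = 0.655), and at 45.0, 51.0 and 56.4 (control) and 54.1, 60.6 and 63.6 CPM (*thia*) in F3 (0.19, SE 0.107, adjusted p = 0.358). The groups overlapped and no pool stood out, in contrast with muscle creatine kinase, *Ckm*, which was at 5.20, 2.44 and 1.97 (control) and 4.29, 26.5 and 3.55 CPM (*thia*) in F1 (1.82, SE 0.693, adjusted p = 0.526) and at 9.66, 5.95 and 20.6 (control) and 4.33, 22.7 and 5.98 CPM (*thia*) in F3 (-0.19, SE 0.685, adjusted p = 0.902). *Ckm* was highest in F1 *thia* pool 2, F3 *thia* pool 2 and F3 control pool 3. Myoglobin (*Mb*), the oxygen store, stayed between 0.317 and 1.42 CPM.

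The myogenic regulatory factors, which act upstream of the genes above, reached at most 12.2 CPM. Like the actins, they were highest in *thia* pool 2 in F1 and in control pool 3 in F3. In F3 *thia* pool 2 *Myog* was at 1.77 CPM, while *Acta1* was at 62.6 CPM. *Myog*, which drives the differentiation of myoblasts, was at 4.07, 0.859 and 0.875 CPM in F1 control and 1.94, 12.2 and 1.17 in F1 *thia* (log2 fold change 1.38, SE 0.836, adjusted p = 0.639). In F3 it was at 4.81, 2.25 and 8.77 CPM in control and 1.66, 1.77 and 1.41 in *thia* (-1.76, SE 0.461, adjusted p = 0.120). F1 groups overlapped through control pool 1, while in F3 all 3 *thia* pools were close together and below every control pool.

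*Myod1*, which commits cells to the lineage, was at 1.42, 0.236 and 0.182 CPM in F1 control and 0.429, 4.51 and 0.187 in F1 *thia* (log2 fold change 1.41, SE 1.05, adjusted p = 0.683), and at 1.27, 0.687 and 2.66 (control) and 0.408, 0.781 and 0.287 CPM (*thia*) in F3 (-1.73, SE 0.575, adjusted p = 0.161). The early factor *Myf5* was at 0.606, 0.219 and 0.292 (control) and 0.224, 0.772 and 0.483 CPM (*thia*) in F1 and at 0.666, 0.608 and 1.41 (control) and 0.431, 0.550 and 0.575 CPM (*thia*) in F3 (-0.82, SE 0.382, adjusted p = 0.268). Its neighbour on chromosome 10, *Myf6*, was at 0.146, 0.101 and 0.146 (control) and 0.224, 0.399 and 0.125 CPM (*thia*) in F1, below the filter for the test, and at 0.394, 0.238 and 1.12 (control) and 0.159, 0.463 and 0.212 CPM (*thia*) in F3 (-1.17, SE 0.659, adjusted p = 0.354). F3 fold changes of all 4 factors were below 0, and for *Myog* and *Myf5* the F3 groups did not overlap. For *Myod1* and *Myf6* F3 *thia* pool 2 reached into the control range. F3 control pool 3 had the highest F3 level of each of the 4.

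**Figure D4:**
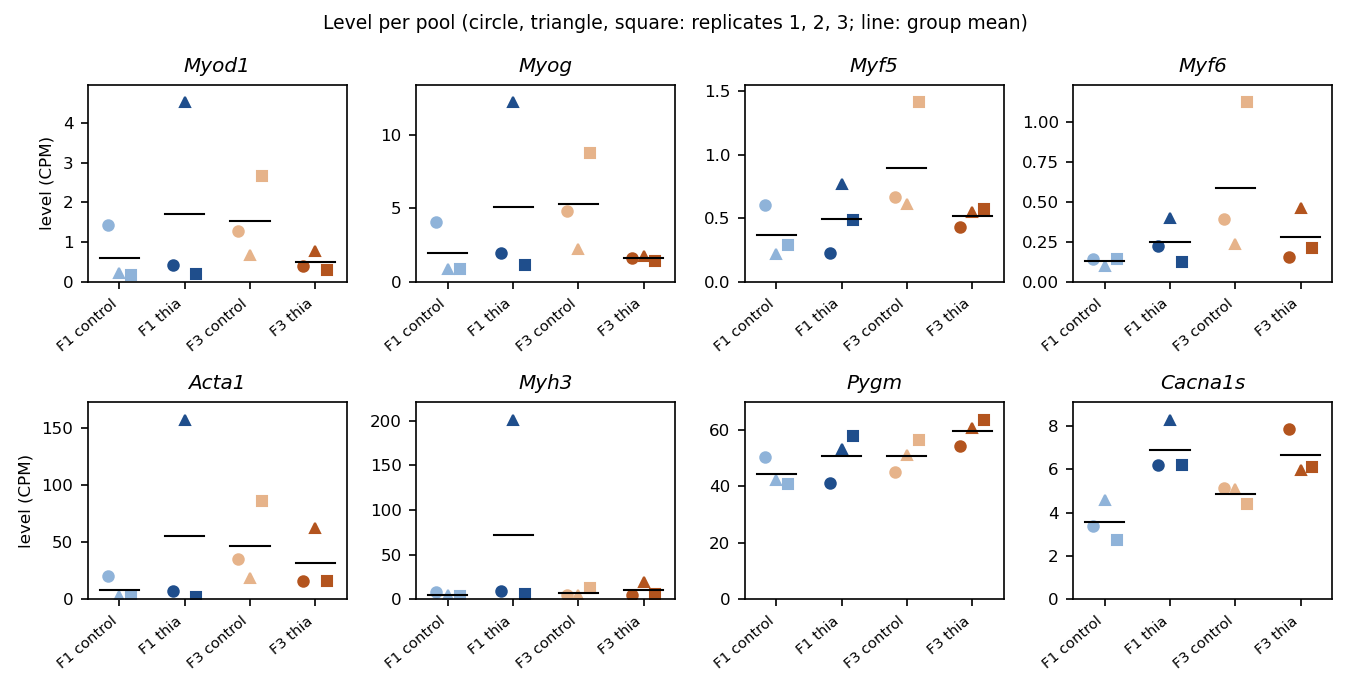
Level (CPM, vertical axes from 0) of the 4 myogenic regulatory factors and of *Acta1*, *Myh3*, *Pygm* and *Cacna1s* in each pool, with symbols for replicates 1, 2 and 3 and a line at the group mean. A single pool lifts the F1 *thia* mean for *Myod1*, *Myog*, *Acta1* and *Myh3*, *Pygm* is nearly level, and *Cacna1s* is higher in all *thia* pools of each generation.

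Ratios between muscle genes within a pool differed between the generations and the high pools. Per 100 CPM of *Acta1*, *Myh3* stood at 128 CPM in F1 *thia* pool 2 at 41.1 to 300.0 CPM in the other F1 pools, and at 14.7 CPM in F3 control pool 3 and 30.2 CPM in F3 *thia* pool 2, with 12.4 to 35.1 CPM over the 6 F3 pools. *Myog* stood at 7.77 CPM in F1 *thia* pool 2 and 19.8 to 64.7 CPM in the other F1 pools on the same scale, and at 10.2 CPM in F3 control pool 3 and 2.82 CPM in F3 *thia* pool 2. All F1 pools thus had more embryonic myosin beside their actin than any F3 pool, F1 *thia* pool 2 among them, and F3 *thia* pool 2 had the least *Myog* beside it. These are ratios of levels within a pool, given as a description. *Myh3* has 6057 bases of exon and *Acta1* 1446, and the lean by length given below differed between the generations. Some F1 ratios rest on few counts of *Acta1*, 58 in control pool 3 and 116 in *thia* pool 3.

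Levels of different genes can be set side by side only per length. In RPKM (CPM per kilobase of exon), averaged over the 12 pools, *Mylpf* (24.8), *Acta1* (24.6) and *Tnnt1* (24.1) were the highest of the 35, followed by *Tnni1* (19.7), *Actc1* (18.2) and *Pygm* (17.9). *Ttn* (0.0322) and *Neb* (0.121) were the lowest. *Tnnt1*, *Tnni1* and *Pygm* were at 15.7 CPM or more in every pool, whereas the mean of *Acta1* was 38.3 RPKM in F1 *thia*, through pool 2, and 5.85 RPKM in F1 control.

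Promoters of 28 of the 35 genes were matched in a RefSeq table of 300-base windows (250 bases before to 50 after the start, GRCm38.p6, the build of mm10), and some genes had more than 1 window. The windows of 3 genes that followed the high pools and of the steady *Pygm* are shown to let a reader see 1 form of the E-box that these factors bind. Capitals mark CAGCTG, a form of E-box favoured by MyoD, and a simplified MEF2-type pattern, CTA and TAG with 4 free bases between them. None of these 4 windows held the second in this exact form. Near matches were not counted, such as one in the *Myog* window that ends in TAT.
Acta1, chr8:123894726-123895025, minus strand: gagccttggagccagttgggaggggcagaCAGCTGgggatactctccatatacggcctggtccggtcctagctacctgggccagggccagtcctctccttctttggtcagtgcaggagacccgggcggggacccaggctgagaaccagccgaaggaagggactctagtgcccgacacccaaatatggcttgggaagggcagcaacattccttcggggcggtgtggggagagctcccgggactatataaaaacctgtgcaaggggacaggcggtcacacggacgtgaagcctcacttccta
Myog, chr1:134289754-134290053, plus strand: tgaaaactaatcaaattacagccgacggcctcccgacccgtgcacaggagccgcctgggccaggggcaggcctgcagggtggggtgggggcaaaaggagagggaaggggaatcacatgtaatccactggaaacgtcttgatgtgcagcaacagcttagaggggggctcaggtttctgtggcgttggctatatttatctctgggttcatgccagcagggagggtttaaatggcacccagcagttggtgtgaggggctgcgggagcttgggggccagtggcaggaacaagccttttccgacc
Myh3, chr11:67078050-67078349, plus strand: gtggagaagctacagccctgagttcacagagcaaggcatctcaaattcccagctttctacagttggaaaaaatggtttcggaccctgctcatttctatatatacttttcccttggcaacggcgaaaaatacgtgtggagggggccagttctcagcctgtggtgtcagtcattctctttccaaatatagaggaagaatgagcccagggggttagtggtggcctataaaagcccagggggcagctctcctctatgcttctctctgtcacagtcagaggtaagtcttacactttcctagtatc
Pygm, chr19:6384158-6384457, plus strand: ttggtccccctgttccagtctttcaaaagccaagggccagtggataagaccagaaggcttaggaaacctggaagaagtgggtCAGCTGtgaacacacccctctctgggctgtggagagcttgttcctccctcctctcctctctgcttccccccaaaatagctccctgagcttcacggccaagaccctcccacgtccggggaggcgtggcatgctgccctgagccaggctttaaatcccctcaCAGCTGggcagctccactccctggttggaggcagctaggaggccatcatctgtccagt

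*Acta1* had 1 CAGCTG and *Pygm* 2, and *Myog* and *Myh3* had none in these windows. The broader E-box CANNTG, which includes CAGCTG and is not marked, occurred 2 times in *Acta1*, 2 in *Myog*, 1 in *Myh3* and 3 in *Pygm*. Whether these matches go with the level of a gene in a pool was not tested. Over all matched skeletal muscle genes, CAGCTG, searched on both strands, was in 42.4% of 33 windows (12 of 28 genes) beside 16.3% of all 32851 windows. CANNTG was in 81.8% beside 72.3%, the MEF2-type pattern in 12.1% beside 3.69% and TATAAA in 30.3% beside 13.6%. These are matches of letters, not measured binding.

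In F3 the direction of a gene went with its length. Of the 16 genes with less than 2000 bases of exon, among them the troponins, light chains and actins, 15 were lower in *thia*, with a median log2 fold change of -0.77. Of the 11 with more than 6000 bases, among them the heavy chains, *Ttn*, *Neb* and *Ryr1*, 10 were higher, with a median of 0.53. The 8 genes in between had a median of -0.20. All genes tested leaned the same way by length to a smaller degree, with medians of -0.12, 0.018 and 0.17 from the shortest class to the longest. In F1 the medians of the skeletal muscle genes were 1.39, 0.44 and 1.04 and those of all genes 0.065, 0.0044 and -0.056.

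The lean by length was visible in the libraries themselves. The median level of long genes minus that of short genes, each relative to the gene's mean over the 12 pools, was -0.44 to -0.24 (log2) in the 3 F3 control pools, -0.14 to 0.020 in the 3 F3 *thia* pools and 0.024 to 0.44 in the 6 F1 pools. When a trend on length was removed from each library, an alternative added after the data were seen, 2 of the 35 genes were higher (*Myh1* and *Myh8*) and 4 lower (*Tnni1*, *Actn2*, *Myod1* and *Myog*) in F3 at an unadjusted p under 0.05, against 6 and 4 without it, and the shares of all genes with a length were 7.88% and 10.6%. The log2 fold changes of these heavy chains stayed above 0, at 0.66 for *Myh1*, 0.79 for *Myh2*, 0.55 for *Myh4*, 0.39 for *Myh7* and 0.91 for *Myh8* with the trend removed, beside 0.80, 0.92, 0.68, 0.53 and 1.07 without that step, and *Cacna1s* was at 0.27 beside 0.42. The part of RNA quality in this lean was not tested.

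**Figure D5:**
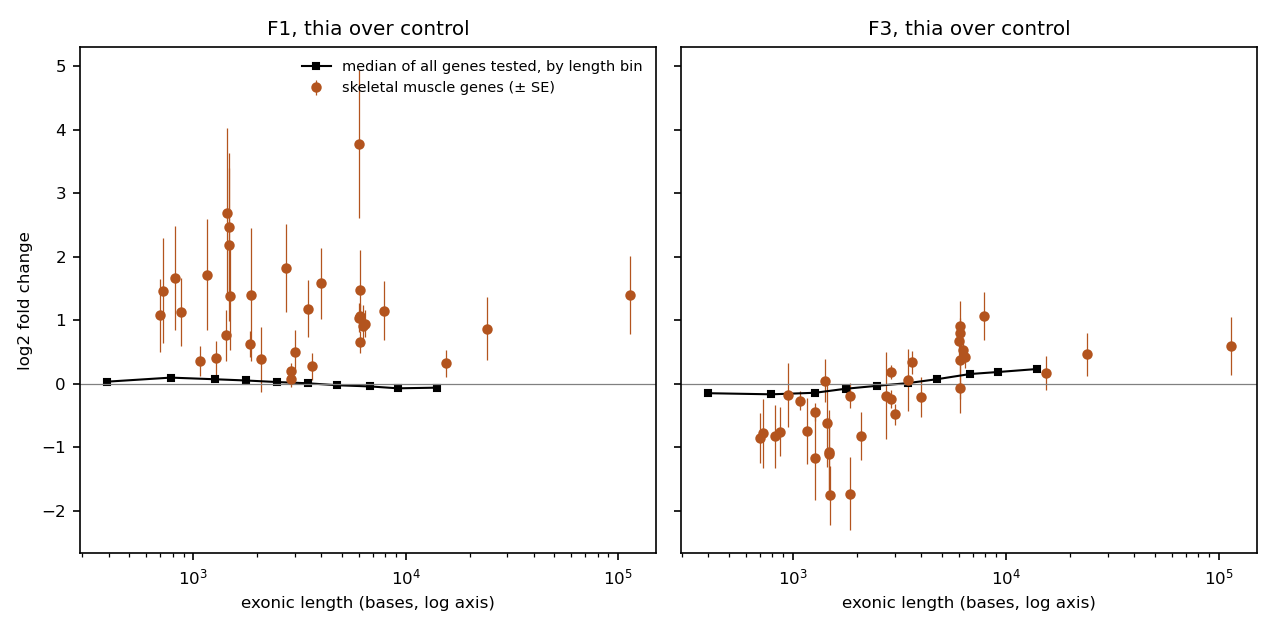
Log2 fold change of each tested skeletal muscle gene (points with standard errors) against its exonic length (log axis) in F1 and F3, with the median of all genes tested per length bin (line). In F3, 15 of the 16 short genes lie below 0 and 10 of the 11 long ones above it, and the line for all genes rises from left to right. In F1 all points lie above 0 at every length.

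The *thia* effect in F3 was below that in F1 for 32 of the 35 genes, with a median difference of -1.12 on the log2 scale, beside 0.018 for all genes. In the fit of all 12 pools none of the 35 differed between generations at an adjusted p of 0.1 (edgeR, smallest adjusted p = 0.259 for *Casq1*), as was the case for all but 0.00510% of the genes tested. At an unadjusted p under 0.05, 9 of the 35 (25.7%) had a lower effect in F3, against 6.10% of all genes tested: *Myh3*, *Actc1*, *Tnni1*, *Tnni2*, *Tnnc2*, *Mybpc1*, *Casq1*, *Myog* and *Myf6*. DESeq2 gave an adjusted p for 22 of the 35, *Casq1* and *Myog* not among them, and called 0 of the 22, against 5.67% of all genes with an adjusted p. The count of 9 was 1 without F1 control pool 3, F1 *thia* pool 2 or F3 control pool 3, and 3 without F3 *thia* pool 1 or pool 3. It was 4 without F1 control pool 2, 6 without F3 control pool 1 and 10 without F3 control pool 2. It was 16 to 20 without F1 control pool 1, F1 *thia* pool 1, F1 *thia* pool 3 or F3 *thia* pool 2. The share of all genes tested ran from 4.02% to 6.83% over the fits that left out 1 pool. With the length trend removed the count was 5, against 4.98% of all genes with a length. Without F1 *thia* pool 2 the median difference was -0.22.

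Skeletal muscle genes outside the 35 ran in parallel. The 46 further genes summed to 360 CPM in F1 *thia* pool 2 and to 121 to 156 CPM in the other F1 pools, and to 167 to 253 CPM in F3, with F3 control pool 3 the highest. In F1, 40 of the 41 tested were higher in *thia* (median log2 fold change 0.88) and 16 were so at an unadjusted p under 0.05, against 4.63% of all genes tested, but 0 were called. The smallest p was that of *Trim54*, a ring finger protein of the sarcomere, at 2.01, 1.89 and 1.60 CPM in F1 control and 2.91, 3.11 and 3.07 in F1 *thia* (log2 fold change 0.73, SE 0.186, adjusted p = 0.446), which did not overlap. In F3, 29 of 43 were lower and 6 of them at an unadjusted p under 0.05, a share near the 10.0% of all genes tested, and 0 were called. The smallest p there was that of *Vgll2*, a cofactor of TEAD factors in muscle, at 1.33, 0.793 and 2.24 CPM in F3 control and 0.408, 0.492 and 0.408 in F3 *thia* (-1.78, SE 0.405, adjusted p = 0.105), with every *thia* pool below the controls. These further genes were listed with results of these data known and add no independent support.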

How the data were processed

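RNA of 12 pools of embryonic testis was sequenced from strand-specific NEBNext Ultra II Directional libraries, paired-end. Per the labels and the study's methods, the authors aligned reads with HISAT2 (2.1.0, after bcl2fastq 2.20.0.422; versions from the submitters' processing notes) to mm10 and assigned them to genes of the UCSC refGene annotation with featureCounts. How reads shared by paralogs were counted is not given in the sources used here. The deposited values are raw counts per gene symbol, 1 file per library, with 25081647 to 68996146 counts per library.

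From these, CPM and fold changes were computed in R 4.3.3 with edgeR 4.0.16 (filterByExpr with a minimum count of 10, TMM scaling, quasi-likelihood test, Benjamini-Hochberg adjustment over all genes tested). Control and *thia* were compared within a generation (adjusted p of 0.15 in F1 and 0.1 in F3, the thresholds of the study's methods), and the difference of the effects was tested in a fit of all 12 libraries (0.1). DESeq2 1.42.0, other scalings and filters, a replicate block and leaving out each pool were alternatives. Standard errors are the log2 fold change over the square root of F. Exonic lengths are merged exons of GENCODE M21, which gave a value for 91.2% (F1) and 92.6% (F3) of genes tested and for all 35. Plots were drawn with matplotlib.

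The 35 genes and all lists were chosen with earlier results of these data known. Values in every pool are given for the 2 genes of each role with the highest mean CPM, for genes with an unadjusted p under 0.05 in either generation and for the 4 myogenic regulatory factors. Of the further skeletal muscle genes, the 2 with the smallest p were named. Genes are not replicates, so no test was run over the list. The fitting steps were tested on simulated data with the same dispersion for all genes and no outlying pool. That test does not show how the fits handle a single high pool. P-values set the difference between groups against the estimated variation between pools, and litter was not part of the model.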

Additional observations from a re-analysis of the deposited data

How the results depend on the processing

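In F1, 0 of 33 genes passed at an adjusted p of 0.15. With no filter on low counts 11 of the 35 then tested did (*Tcap* among them), against 0.780% of all genes, with DESeq2's Wald test 3 of the 27 given a p, against 0.985%, and with a length trend removed 1 (*Myh2*), against 0.0688%. In F3, 0 of 35 passed at 0.1. With DESeq2 6 of 30 did, against 17.1% of all genes, with no filter 1 (*Myog*), against 1.85%, with all 12 libraries in one fit 1 (*Myh1*), against 9.86%, and with F3 control pool 3 and F3 *thia* pool 2 left out 1 (*Myh8*), against 1.1%. The length trend and the pairs of pools left out were chosen after seeing the data. Over all genes, calls in F1 went from 2 to 243 with no filter and 170 with DESeq2, and in F3 from 0 to 569 and 2546. Other scalings called none of these genes. Leaving out 1 pool at a time, the median log2 fold change ran from 0.046 (without F1 *thia* pool 2) to 1.48 in F1, and the median difference between generations from -1.39 to -0.22 (without F1 *thia* pool 2). *Acta1* in F1 ran from -0.91 to 4.53, *Actc1* in F1 from -0.67 to 3.84 and *Acta1* in F3 from -1.59 to 0.19. For a chosen part of the 35 genes, 492 values of single genes under the alternatives were compared with the main fit. Of these, 466 kept direction and side of the threshold, 23 newly passed it and 3 turned. These counts do not cover the other genes. Over all genes tested, 12 of 34 were below 0 in F1 without *thia* pool 2, against 0 of 33 with it. The cause of these shifts was not tested. Replicate numbers gave no clear pairing of the pools. Deviations of same-numbered pools correlated at -0.032, -0.034 and 0.020 in F1 and 0.23, -0.42 and -0.27 in F3. Not every pool correlated best with its own number. The deviations were taken from the mean of only 3 pools, so a modest shared effect could be missed. With the replicate block none of the 35 genes was called in F1, in F3 or between generations, as without it. The block gave 10 genes higher in F1 at an unadjusted p under 0.05 in place of 13 (4.07% of all genes), 3 higher and 3 lower in F3 in place of 6 and 4 (9.63% and 8.86%), and 3 lower between generations in place of 9 (5.07%).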

Other observations

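The muscle-type nicotinic acetylcholine receptor, the receptor class on which neonicotinoids act in insects, has subunit genes outside the 35. Of these, 4 were looked at after their values were seen, and the subunit gene *Chrnb1* was not among them. *Chrna1*, the subunit that binds acetylcholine, was at 0.501, 0.236 and 0.364 CPM in F1 control and at 0.373, 1.97 and 0.639 CPM in F1 *thia* (log2 fold change 1.42, SE 0.586, edgeR adjusted p = 0.556), so the high pool was again F1 *thia* pool 2. The fetal subunit *Chrng* was at 0.439, 0.320 and 0.401 CPM in F1 control and 0.429, 1.42 and 0.312 CPM in F1 *thia* (0.88, SE 0.543, adjusted p = 0.642), with the same pool highest. *Chrnd* and the adult subunit *Chrne* had smaller differences, with log2 fold changes of 0.34 and 0.41 and adjusted p of 0.771 and 0.741. In F3 the log2 fold changes of the 4 genes ran from -0.047 to 0.59 with adjusted p of 0.377 to 0.957. All 4 were under 2 CPM in every pool.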
